A study of Mus musculus with 12 samples.

Results

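The CC and CXC chemokines of the mouse aorta were taken as all gene symbols that start with Ccl or Cxcl followed by a number, which gave 36 of the 32245 symbols in the count tables, 24 of them Ccl and 12 Cxcl genes, on 42 of 32285 lines. Lines that share a symbol were summed. The aorta was profiled by droplet single-cell RNA sequencing, with 1 gene expression library for each of 4 groups of mice and 6 aortas pooled in each library. All 4 groups were labelled as male C57BL/6J ApoE-/- mice, which lack apolipoprotein E and develop atherosclerosis (AS), from 18 mice per group that were 8 weeks old at the start and were fed for 24 weeks. Saline and a normal diet were given to the mice of the Healthy group. The AS mice received a high-fat diet with 1% cholesterol and 10% fat and saline. The MTZ-treated group received the same high-fat diet with saline first and methazolamide (MTZ), a carbonic anhydrase inhibitor spelled methoxazolamide in the sample labels, at 25 mg/kg every other day by mouth for the last 12 weeks. The MTZ-preventive group received the high-fat diet and MTZ for all 24 weeks.

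Chemokines are small secreted proteins that bind G protein-coupled receptors on white blood cells and steer them along a gradient. CXC members such as Cxcl1, Cxcl2 and Cxcl3 act on the neutrophil receptor Cxcr2, whereas CC members such as Ccl2 and Ccl7 act on the monocyte receptor Ccr2. In the artery wall they are made by endothelial cells, smooth muscle cells, fibroblasts and resident or recruited immune cells, and they are known for drawing monocytes, neutrophils and lymphocytes into the atherosclerotic plaque.

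The library labelled Healthy went against its genotype label: Apoe, deleted in ApoE-/- mice, was at 673 CPM (UMIs of a gene per 1000000 UMIs) there and at 8.95 to 12.6 CPM in the other 3 libraries. Every ratio against the library labelled Healthy is therefore one against a library whose genotype is in doubt. Between 2160 (AS) and 14186 (MTZ-preventive) cells passed the limits of the study with doublets removed, out of 6908 to 23963 deposited barcodes, and they held 3810264 to 35404743 UMIs (unique molecular identifiers, which count mRNA molecules) with a median of 1299.5 to 1981 UMIs a cell. Pairs of libraries shared 22 to 243 kept barcodes. A class such as fibroblast-like was given to 58.6% to 75.9% of the cells from marker genes that hold no chemokine, 11.4% to 22.6% had mixed markers, and 416 to 2518 cells per library lay at the limit of their class. With 1 pooled library per group no test between groups was possible, and all limits printed in parentheses are exact 95% limits that cover counting error only. Values for the 4 libraries are given in the order labelled Healthy, AS, MTZ-treated, MTZ-preventive. A value over all cells cannot tell fewer cells of a type from less RNA per cell, and the mix of cells differed. B-like cells numbered 3213, 16, 74 and 1133, or 28.9%, 0.741%, 1.09% and 7.99% of the kept cells. Fibroblast-like cells numbered 1192, 201, 1498 and 2424, or 10.7%, 9.31%, 22.0% and 17.1%.

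The chemokine genes lie in clusters. According to RefSeq (GRCm38.p6), 12 of the 36 members are on chromosome 11 and 10 on chromosome 5, where Cxcl3, Cxcl1 and Cxcl2 lie within chr5:90786101-90905938 and Cxcl9 and Cxcl10 within chr5:92321331-92348889. Ccl2 and Ccl7 are neighbours at chr11:82035577-82047525, and the gene models of Ccl3 (chr11:83647843-83649378) and Ccl4 (chr11:83648624-83664683) overlap, so reads of that pair in the overlap are uncertain. The promoters of the Cxcr2 ligands Cxcl1, Cxcl2 and Cxcl3 and of Cxcl10 are shown because they share a sequence feature, on the strand of the gene and up to the base before the RefSeq start (GRCm38.p6).
Cxcl1, chr5:90891115-90891244, plus strand: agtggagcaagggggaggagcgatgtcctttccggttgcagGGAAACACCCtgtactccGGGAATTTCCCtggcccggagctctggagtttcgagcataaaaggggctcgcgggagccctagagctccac
Cxcl2, chr5:90903769-90903898, plus strand: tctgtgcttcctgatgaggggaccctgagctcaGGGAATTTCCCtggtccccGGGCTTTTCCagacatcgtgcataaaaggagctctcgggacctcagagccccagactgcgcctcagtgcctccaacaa
Cxcl3, chr5:90785971-90786100, plus strand: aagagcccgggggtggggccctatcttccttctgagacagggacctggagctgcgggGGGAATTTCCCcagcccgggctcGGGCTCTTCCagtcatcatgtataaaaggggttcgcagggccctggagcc
Cxcl10, chr5:92348890-92349109, minus strand: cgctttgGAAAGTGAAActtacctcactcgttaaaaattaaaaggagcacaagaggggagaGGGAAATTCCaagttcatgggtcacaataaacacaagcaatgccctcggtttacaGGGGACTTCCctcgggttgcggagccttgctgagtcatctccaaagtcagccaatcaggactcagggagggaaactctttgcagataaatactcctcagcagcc
Capitals mark the kappaB letters, GGG and TTCC with any 3 bases between them (GGAA and CCC on the other strand), and in Cxcl10 also the interferon response letters, GAAA and GAAA with any 2 bases between them (TTTC and TTTC on the other strand). Palindromic matches, which overlap on both strands, are printed as 1 run. Over the 250 bases before the start, 7 of the 25 members with a RefSeq window held the kappaB letters (Cxcl1, Cxcl2, Cxcl3, Cxcl10, Ccl1, Ccl9 and Ccl20), or 28.0%, beside 5.31% of 27018 genes. The interferon response letters were in 3 of 25 (Cxcl10, Cxcl14 and Ccl19), beside 3.46% of genes. A match of letters describes the sequence and does not show that a factor binds there.

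Chemokine mRNA differed in amount and in kind between the libraries. The members summed to 1485, 4043, 2121 and 3324 CPM. The leading 3 genes were Ccl5, Ccl21a and Cxcl12 in the library labelled Healthy, Cxcl2, Cxcl13 and Cxcl12 in AS, Ccl5, Ccl2 and Cxcl12 in MTZ-treated, and Cxcl13, Cxcl1 and Ccl2 in MTZ-preventive. They held 43.4% or more of the chemokine UMIs in each library. Of the 36 members, 22 reached 10 CPM in at least 1 library and are described by name. The other 14 were Ccl1, Ccl17, Ccl20, Ccl21b, Ccl21c, Ccl22, Ccl24, Ccl25, Ccl26, Ccl27b, Ccl28, Cxcl5, Cxcl15 and Cxcl17. They stayed at or below 5.94 CPM (Ccl25), and Ccl26 and Ccl27b had no UMI in any library. For 5 members on more than 1 line, among them Ccl19, Ccl21a and Ccl27a, near-identical gene copies make the split of reads uncertain.

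**Figure D1:**
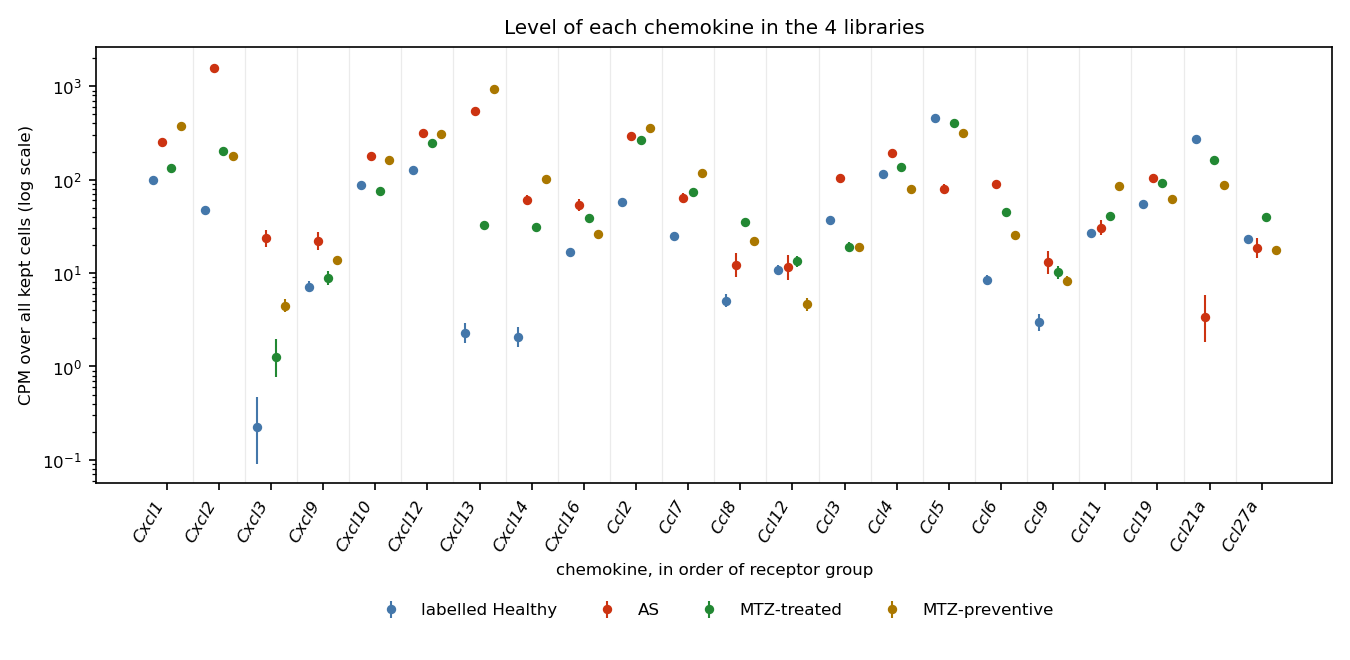
Level of each of the 22 chemokines with at least 10 CPM in a library, over all kept cells. The axis is CPM on a log scale, each point is 1 library of 6 pooled aortas and bars are exact Poisson limits; Cxcl2 is at 1573 CPM in AS and at 47.0 to 200.5 CPM in the other libraries, and Ccl21a is at 3.41 CPM in AS and at 88.5 to 272 CPM in the others.

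Against the library labelled Healthy, AS had more of most chemokines. Of the 22 members with at least 10 CPM in either library, 15 were over 2-fold higher in AS beside 8.71% of all 9529 genes tested this way, and 2 (Ccl5 and Ccl21a) were over 2-fold lower beside 13.8% of all genes. The median log2 ratio was 1.36 for the members and -0.12 for all genes. The mix of cells moved with this count: without B-like, T-like and NK-like cells 9 members were over 2-fold higher, 8 of them among the 15. With 7 classes of cells weighted alike 6 were, all among the 15. The 6 were Cxcl2, Cxcl3, Cxcl13, Cxcl14, Ccl2 and Ccl6. The classes weighted were adipocyte-like, endothelial-like, fibroblast-like, macrophage-like and smooth muscle-like cells, cells with mixed markers and cells without a class. Neutrophil-like, lymphatic endothelial-like, B-like, T-like and NK-like cells were left out, and the mix within the mixed and unclassed cells was not evened out. The share of all genes past 2-fold was not counted in either setting, and the median log2 ratio of all genes was -0.24 and -0.19. The 7 members called over all cells and in neither of these settings were Cxcl1, Cxcl9, Cxcl10, Cxcl12, Cxcl16, Ccl7 and Ccl8.

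The 2 MTZ libraries were each compared with the same AS library, so the comparisons share it. In MTZ-treated, 4 of 22 members were over 2-fold higher than in AS (Ccl5, Ccl8, Ccl21a and Ccl27a) beside 5.94% of all genes, and 6 were over 2-fold lower (Cxcl2, Cxcl3, Cxcl9, Cxcl10, Cxcl13 and Ccl3) beside 5.84%. The median log2 ratio was -0.42 for the members and 0.07 for all genes. In MTZ-preventive, 3 were higher (Ccl5, Ccl11 and Ccl21a) beside 4.50% of all genes, and 7 were lower (Cxcl2, Cxcl3, Cxcl16, Ccl3, Ccl4, Ccl6 and Ccl12) beside 2.95%. There the medians were -0.11 and 0.06. The mix of cells moved with these counts too. With 7 classes weighted alike, 3 of the 7 members lower in MTZ-preventive were still past 2-fold (Cxcl2, Cxcl3 and Ccl3), Cxcl16 and Ccl4 were not, and Ccl12 and Ccl6 turned to log2 ratios of 0.92 and 0.08. In the same setting, 4 of the 6 members lower in MTZ-treated were still past 2-fold, without Cxcl9 and Cxcl10. So were 2 of the 4 higher ones (Ccl5 and Ccl21a), without Ccl8 and Ccl27a. Past 2-fold only here were Ccl12 (higher) and Cxcl14 (lower) in MTZ-treated, and Ccl8 (higher) and Ccl19 (lower) in MTZ-preventive. The 7 classes hold no NK-like, T-like, lymphatic endothelial-like or neutrophil-like cells. The setting therefore cannot take the share of those cells out of Ccl5, Ccl21a, Cxcl2, Cxcl3 or Ccl3. The share of all genes past 2-fold was not counted in this setting. The median log2 ratio of all genes in it was 0.04 for MTZ-treated and 0.07 for MTZ-preventive.

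**Figure D2:**
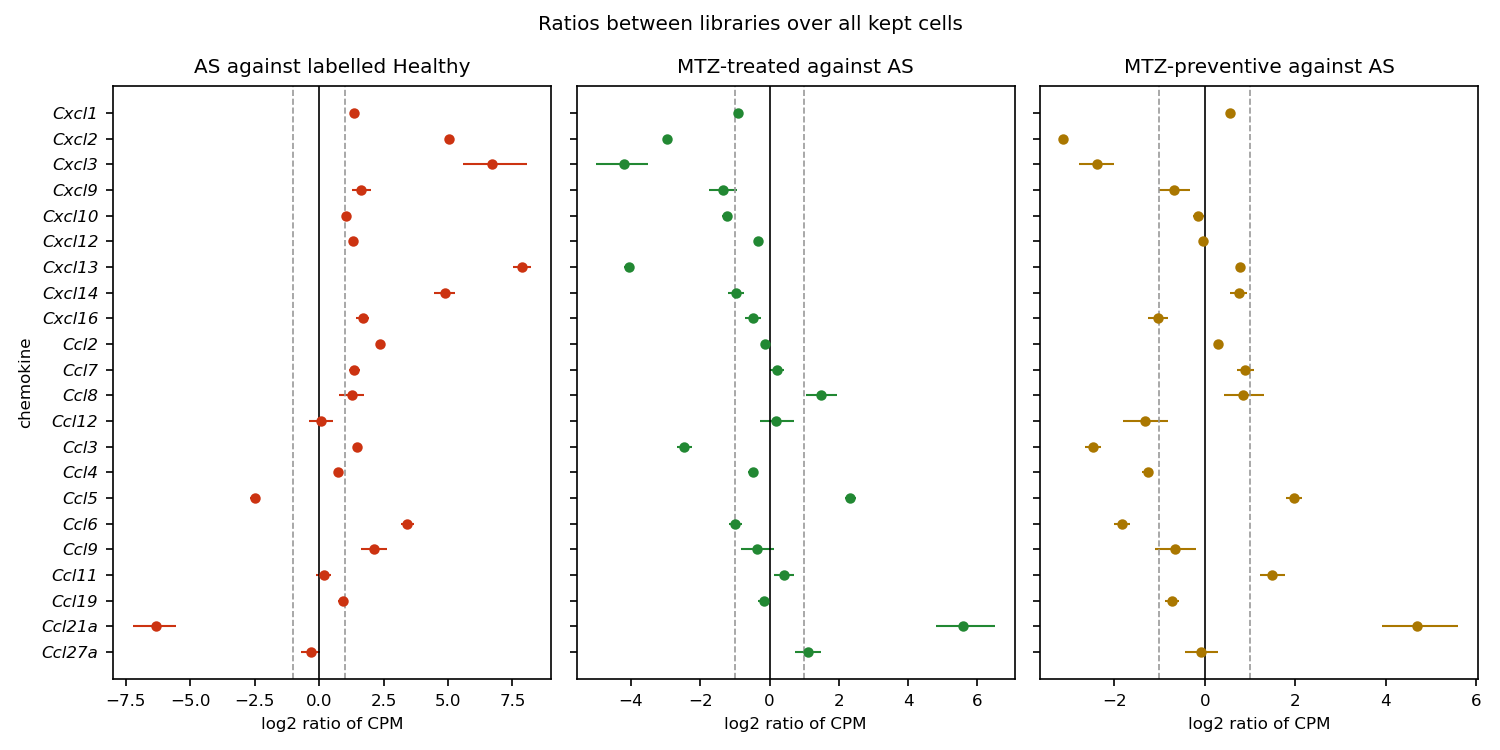
Log2 ratio of the CPM of 2 libraries for each chemokine in the 3 comparisons, over all kept cells, with exact limits as bars and a line at no difference. Cxcl2 lies at 5.06 for AS against the library labelled Healthy and at -2.97 and -3.14 for MTZ-treated and MTZ-preventive against AS; Cxcl13 lies at 7.87, -4.06 and 0.79.

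Among the neutrophil-attracting ligands of Cxcr2, Cxcl2 separated the AS library from the others. Cxcl2, an early inflammatory product of myeloid cells, was at 47.0, 1573, 200.5 and 178 CPM. AS was thus the highest library, 33.5-fold (31.6 to 35.5) above the library labelled Healthy, 7.85-fold (7.52 to 8.20) above MTZ-treated and 8.83-fold (8.52 to 9.15) above MTZ-preventive. Cxcl3, a close relative of Cxcl2 with the same receptor, followed at a lower level of 0.227, 23.6, 1.27 and 4.49 CPM, or 104-fold (48.4 to 266) higher in AS than in the library labelled Healthy. Cxcl1, which fibroblasts and endothelium release to call neutrophils, was at 98.1, 251, 133 and 372 CPM, with MTZ-preventive as the highest library at 1.48-fold (1.39 to 1.58) the AS level. Cxcl5, a further ligand of this receptor, stayed at or below 1.86 CPM.

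The cells with the highest level of Cxcl2 were neutrophil-like and macrophage-like. Only AS held enough neutrophil-like cells to be summed, 35 of them against 8, 2 and 4 in the other libraries, led by Ngp, S100a9, S100a8 and Retnlg, granule and alarmin genes of neutrophils. These 35 cells gave 2393 UMIs of Cxcl2, a level of 27713 CPM (26613 to 28846) and 39.9% of the library's Cxcl2 UMIs. After thinning every cell to 1000 UMIs, 82.9% of the 35 cells had a Cxcl2 UMI (91.4% unthinned), at a median depth of 1627 UMIs. Macrophage-like cells were at 3473, 3050, 5139 and 4445 CPM, from 43, 90, 128 and 51 cells. In them AS was not the highest library by CPM: MTZ-treated was 1.68-fold (1.54 to 1.85) and MTZ-preventive 1.46-fold (1.32 to 1.61) above AS. The top 5 cells held 68.6%, 47.2%, 38.5% and 49.2% of these UMIs. By the share of cells with a UMI after thinning, AS was the highest library at 68.9% (58.3 to 78.2), with limits that overlapped those of every other library. After thinning, 44.2%, 68.9%, 58.6% and 54.9% of the macrophage-like cells had a Cxcl2 UMI (48.8%, 74.4%, 62.5% and 56.9% unthinned), beside 0.498%, 1.35% and 1.06% of B-like cells, which should lack the gene, in the 3 libraries with such a class (0.654%, 1.35% and 1.41% unthinned). Median depths were 2602, 1656, 1839 and 3670 UMIs for macrophage-like cells and 1960, 1373 and 1667 for the B-like cells.

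Structural cells of AS also carried more Cxcl2 than those of the other libraries. Fibroblast-like cells were at 33.0, 390.4, 44.4 and 122 CPM, endothelial-like cells at 74.8, 409, 94.9 and 111 CPM, and smooth muscle-like cells at 10.8, 775, 25.8 and 35.6 CPM. Adipocyte-like cells were at 0 (at most 31.2), 745, 13.2 and 106 CPM, with 53 and 31 cells in the library labelled Healthy and in MTZ-treated. In each of these classes AS was the highest library. Cells with mixed markers held 17.3% of the Cxcl2 UMIs of AS. Neutrophil genes were also highest in AS: in fibroblast-like cells S100a8 was at 25.4, 339, 11.4 and 7.87 CPM, and in smooth muscle-like cells at 6.04, 949.8, 5.29 and 9.33 CPM. In fibroblast-like cells MTZ-preventive was above the library labelled Healthy for Cxcl2 and below it for S100a8. The 10 neutrophil gate markers, which do not include S100a8, summed to 5.50, 41.4, 9.33 and 18 CPM in fibroblast-like cells, with 6 of 10 seen in AS and Clec4d, Trem1, Cd177 and Mrgpra2b at 0. Within AS, there were 0.426 (0.406 to 0.447) Cxcl2 UMIs per S100a8 UMI in neutrophil-like cells, 0.354 (0.324 to 0.387) in cells without a class, 0.816 (0.672 to 0.990) in smooth muscle-like, 0.839 (0.713 to 0.988) in endothelial-like and 1.15 (0.934 to 1.42) in fibroblast-like cells. In adipocyte-like cells the ratio was 0.759 (0.675 to 0.852), and in macrophage-like cells it was 40.5 (24.4 to 72.9). The ratios of the structural and macrophage-like cells all lay above the limits of the neutrophil-like ratio. The part of neutrophil RNA in the Cxcl2 of structural cells was not tested.

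**Figure D3:**
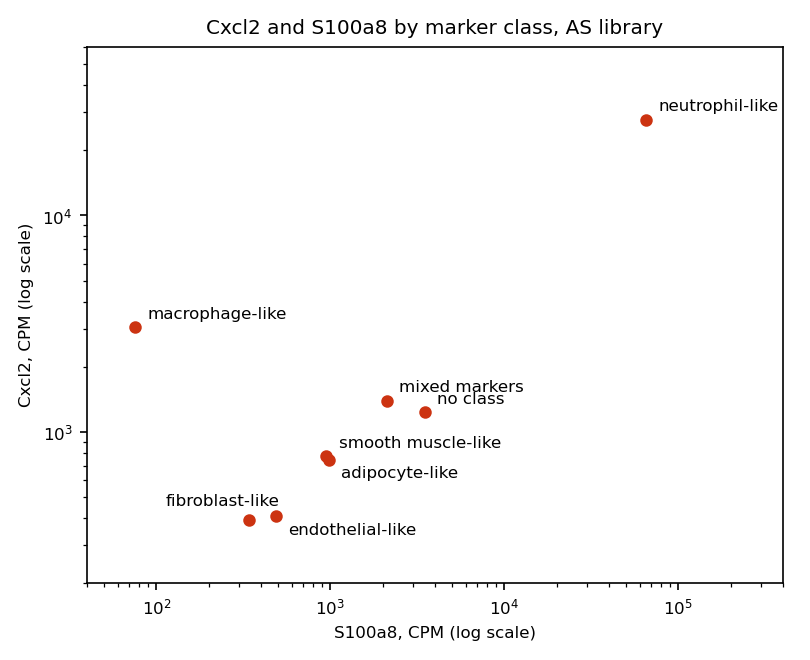
Cxcl2 against S100a8 in the classes of cells of the AS library, both in CPM on log scales, 1 point per class. Neutrophil-like cells are the highest for both at 27713 and 65003 CPM, structural classes lie between 339 and 982 CPM of S100a8, and macrophage-like cells stand apart with 3050 CPM of Cxcl2 at 75.3 CPM of S100a8.

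Cxcl1 was highest in fibroblast-like cells or in adipocyte-like cells in each of the 4 libraries. Fibroblast-like cells were at 340.4, 229, 256 and 746 CPM, with MTZ-preventive 3.26-fold (2.71 to 3.95) above AS. Adipocyte-like cells, from the fat around the vessel, were at 270.4, 465, 276 and 547 CPM. The values of the library labelled Healthy and of MTZ-treated rest on 53 and 31 cells, and the latter was 164 CPM without its top cell. The 10 fibroblast gate markers summed to 2923, 331, 2013 and 311 CPM in adipocyte-like cells, and their part in these levels was not tested. B-like cells were at 1.31 CPM in the library labelled Healthy and at 11.4 CPM in MTZ-preventive. Within fibroblast-like cells of MTZ-preventive, 35.0% (31.4 to 38.7) of the 683 cells with a Cxcl1 UMI after thinning also had Ccl2, against 16.5% (14.8 to 18.3) of the cells without Cxcl1. The same pair stood at 17.3% against 7.50% in the library labelled Healthy and at 23.9% against 9.53% in MTZ-treated. In AS it was 11.1% (3.11 to 26.1) of 36 cells against 20.6% (14.7 to 27.6), and these limits overlap.

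The interferon-induced ligands of Cxcr3, a receptor of activated T cells and NK cells, had adipocyte-like cells as their highest class, except for Cxcl10 in MTZ-treated, where Schwann-like cells were at 306 CPM from 11 UMIs in 21 cells. Cxcl9 was at 7.15, 22.3, 8.85 and 13.9 CPM over all cells and Cxcl10 at 86.7, 181, 76.5 and 164 CPM. For both, AS was 2.09-fold to 3.12-fold above the library labelled Healthy and 2.37-fold to 2.52-fold above MTZ-treated, whereas MTZ-preventive was close to AS for Cxcl10, at 0.907-fold (0.838 to 0.983). With the classes weighted alike, the log2 ratio of Cxcl10 between AS and the library labelled Healthy turned from 1.06 to -0.46. Within adipocyte-like cells Cxcl10 was at 1234, 491, 145 and 614 CPM (985 CPM in the library labelled Healthy without its top cell). AS was thus below the library labelled Healthy there, as it was in fibroblast-like cells (156, 43.4, 77.6 and 144 CPM). The 10 fibroblast gate markers summed to 2923, 331, 2013 and 311 CPM in adipocyte-like cells, so this class differed between the libraries. Their part in the Cxcl10 levels was not tested. Adipocyte-like cells made up 0.477%, 15.6%, 0.456% and 7.19% of the kept cells. Cxcl9 was at 67.6, 49.4, 52.6 and 49.2 CPM in adipocyte-like cells and at 45.1, 38.4, 19.0 and 24.1 CPM in endothelial-like cells (23.7 CPM in AS without the top cell), and had no UMI in the macrophage-like cells of any library, which allows at most 10.3 to 33.8 CPM. The adipocyte-like Cxcl9 values of the library labelled Healthy and of MTZ-treated rest on 53 and 31 cells and few UMIs. There 1 UMI was 8.45 and 13.2 CPM. In AS the adipocyte-like and endothelial-like values rest on 34 and 26 UMIs. The lead of adipocyte-like cells for Cxcl9 is therefore uncertain in these libraries. In MTZ-preventive, 59.7% (46.4 to 71.9) of the 62 adipocyte-like cells with Cxcl9 had Cxcl10, against 33.9% (30.9 to 37.0) of those without.

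Cxcl13, the B cell attractant that acts on Cxcr5, had fibroblast-like cells as its highest class in all 4 libraries. It was at 2.31, 541, 32.5 and 937 CPM over all cells. AS was 234-fold (185 to 301) above the library labelled Healthy and 16.7-fold (15.1 to 18.4) above MTZ-treated, and MTZ-preventive was 1.73-fold (1.66 to 1.81) above AS. Fibroblast-like cells held 62.0% to 77.3% of its UMIs and were at 12.6, 2520, 89.7 and 2779 CPM. In AS 40 of 201 fibroblast-like cells held the 1278 UMIs of Cxcl13, and in MTZ-preventive 910 of 2424 cells held 21902. Without its top cell, which had 324 UMIs, the AS level was 1895 CPM. After thinning, 1.09%, 17.4%, 4.07% and 32.2% of fibroblast-like cells had a UMI (2.01%, 19.9%, 5.34% and 37.5% unthinned), beside 0% (at most 0.497%), 7.04%, 0.355% and 8.28% of endothelial-like cells (0%, 8.45%, 0.568% and 12.7% unthinned), at median depths of 1856, 1345, 1816 and 1935 UMIs and of 2483, 1392, 1613 and 2039.5 UMIs.

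Cxcl13 outside fibroblast-like cells was set beside Dcn, a collagen-binding proteoglycan of fibroblasts. In MTZ-preventive there were 0.323 (0.318 to 0.328) Cxcl13 UMIs per UMI of Dcn in fibroblast-like cells and 0.422 (0.330 to 0.537) in B-like cells. In AS the same ratio was 0.342 (0.321 to 0.365) in fibroblast-like cells, 0.178 (0.131 to 0.239) in endothelial-like cells and 0.552 (0.418 to 0.724) in smooth muscle-like cells, which lie below and above it with limits that do not overlap. The AS macrophage-like level of 431 CPM came from 1 cell with 81 of 86 UMIs and was 25.6 CPM without it, and the T-like level of 125 CPM in MTZ-preventive came from 1 cell with 169 of 238 UMIs and was 36.3 CPM without it. The part of fibroblast RNA in these values was not tested.

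Further CXC members were Cxcl12, Cxcl14, Cxcl16 and Cxcl17. Cxcl12, the Cxcr4 ligand that holds stem cells and lymphocytes in place, was at 127, 314, 249 and 308 CPM. Endothelial-like cells were at 729, 548, 559 and 402 CPM and fibroblast-like cells at 257, 414, 251 and 699.6 CPM, so fibroblast-like cells stood above endothelial-like cells in MTZ-preventive and below them in the other 3 libraries. Cxcl14, a chemokine of stromal and epithelial cells, was at 2.08, 60.6, 30.9 and 102 CPM, and in fibroblast-like cells at 11.8, 94.6, 70.1 and 236 CPM. The library labelled Healthy was the lowest in both. In AS the highest class was smooth muscle-like, at 171 CPM from 43 UMIs in 10 cells. Cxcl16, a membrane-bound ligand of Cxcr6 that also takes up oxidised lipoprotein, was highest in macrophage-like cells at 183, 442, 302 and 315 CPM, and AS was 2.41-fold (1.47 to 4.13) above the library labelled Healthy there. Cxcl17 stayed at or below 0.706 CPM.

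**Figure D4:**
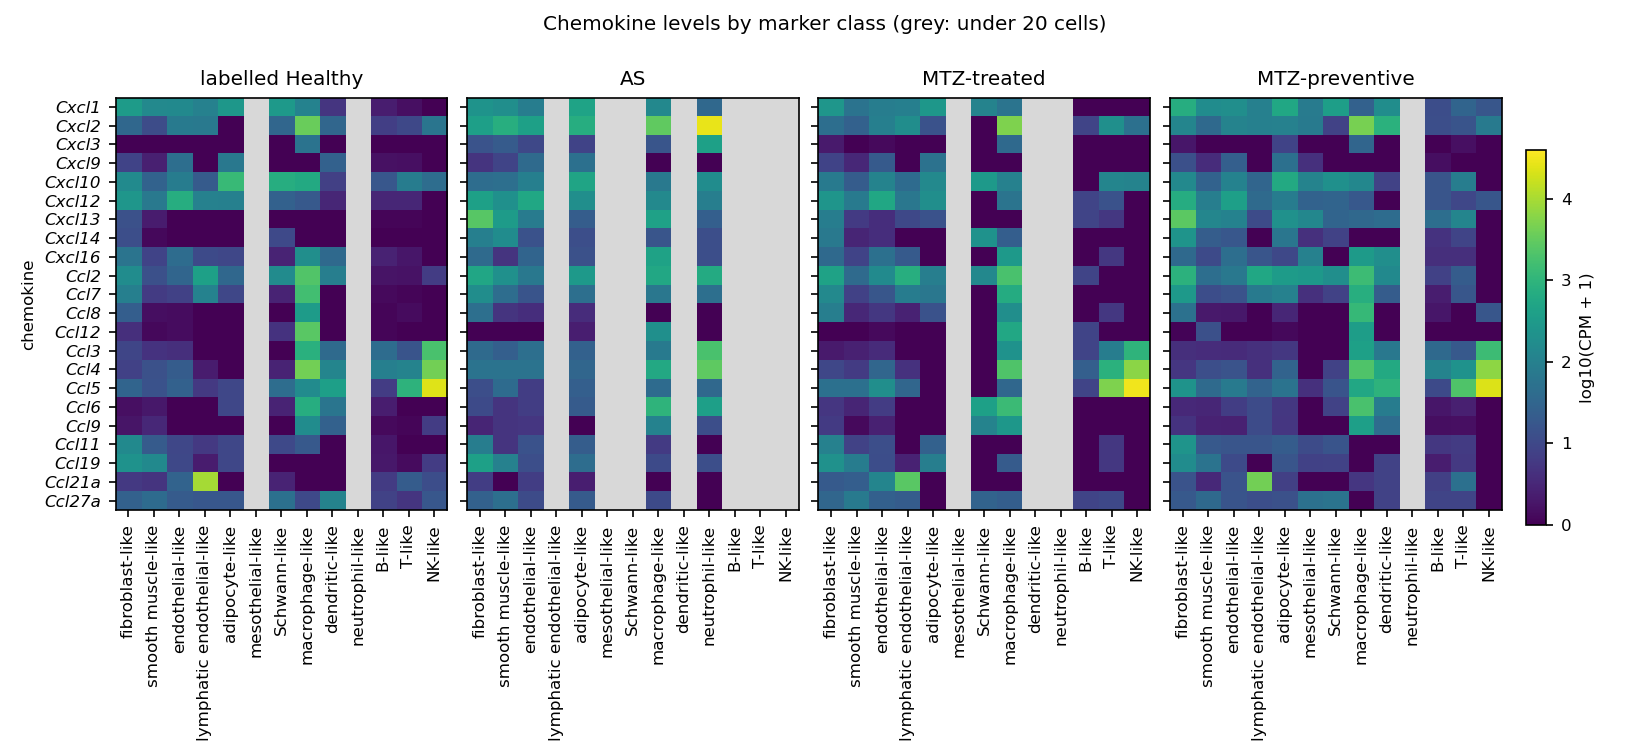
Level of each chemokine in each class of cells, 1 panel per library, as log10 of CPM plus 1, with grey for classes under 20 cells. Ccl5 is brightest in NK-like cells, Ccl21a in lymphatic endothelial-like cells, Cxcl2 in macrophage-like cells and, in AS, in neutrophil-like cells, and Cxcl13 in fibroblast-like cells of AS and MTZ-preventive.

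The monocyte-attracting CC chemokines were measured in macrophage-like, fibroblast-like and further classes, which did not differ between the libraries in the same way. Ccl2, the main ligand of Ccr2, was at 57.2, 292, 267 and 357 CPM over all cells, so that AS was 5.10-fold (4.73 to 5.50) above the library labelled Healthy and both MTZ libraries were within 1.22-fold of AS. Fibroblast-like cells, which held 24.1% to 56.8% of its UMIs, were at 171, 528, 441 and 910.4 CPM. Macrophage-like cells were at 2273, 582, 1882 and 1426 CPM, with AS as the lowest library at 3.91-fold (3.12 to 4.91) below the library labelled Healthy. In AS 1 macrophage-like cell held 64 of 116 UMIs, and the level without it was 276 CPM, and in MTZ-treated 1 cell held 245 of 672, with 1224 CPM without it. Lymphatic endothelial-like cells were at 411, 769 and 549 CPM in the 3 libraries with enough of them (335 CPM in MTZ-preventive without the top cell), so they stood above fibroblast-like cells in the library labelled Healthy and in MTZ-treated. In AS the neutrophil-like cells were the highest class at 637 CPM (479.8 to 829), or 408 CPM without the top cell, and adipocyte-like cells were at 304 CPM with 18.8% of the UMIs.

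Ccl7, a further Ccr2 ligand encoded beside Ccl2, was at 24.7, 63.8, 73.7 and 118 CPM over all cells. It was at 1640, 65.2, 689 and 769.9 CPM in macrophage-like cells and at 93.8, 179, 146 and 313 CPM in fibroblast-like cells. AS was again the lowest library in the former class and not in the latter. Both genes were found together in cells: after thinning, 22.4%, 39.5%, 25.9% and 31.6% of fibroblast-like cells with Ccl2 also had Ccl7, against 3.78%, 4.91%, 5.06% and 7.64% of those without, and the limits did not overlap in any library. In macrophage-like cells the shares were 65.0%, 9.09%, 44.2% and 45.8% against 17.4%, 1.47%, 1.32% and 0% (at most 12.8%). There the limits overlapped in AS, at 1.12 to 29.2 from 22 cells with Ccl2 against 0.0372 to 7.92, and not in the other libraries.

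Ccl12, the mouse chemokine closest to Ccl2, was found mainly in macrophage-like cells, which held 85.7%, 86.4%, 97.6% and 50.6% of its UMIs. In MTZ-preventive, smooth muscle-like cells held a further 36.0%, or 59 UMIs in 17 cells, at 12.5 CPM. In macrophage-like cells Ccl12 was at 2639, 191, 571 and 363 CPM, with a log2 ratio of -3.79 (-4.32 to -3.30) between AS and the library labelled Healthy, whereas over all cells it was at 10.9, 11.5, 13.3 and 4.63 CPM. Single cells carried much of the macrophage-like level: without the top cell the levels were 2259, 95.5, 365 and 213 CPM. Macrophage-like cells made up 0.387%, 4.17%, 1.88% and 0.360% of the kept cells. Ccl8, encoded in the same cluster on chromosome 11, was at 5.07, 12.3, 34.8 and 22.2 CPM over all cells, and in macrophage-like cells at 339, 0, 188 and 1185 CPM, where AS allows at most 18.5 CPM. The last value rests on 1 cell with 182 of 271 UMIs and was 397 CPM without it, and the first was 209 CPM without its top cell. Fibroblast-like cells held most of the Ccl8 UMIs in all 4 libraries and were at 22.8, 47.3, 91.5 and 52.0 CPM.

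Macrophage-like cells of AS also carried more markers of other classes than those of the other libraries by the median per cell, 4 against 2, 2 and 3, beside 5 own markers against 6, 6 and 7. Fibroblast gate markers summed to 82.5, 442, 434 and 109 CPM in them and neutrophil gate markers to 64.2, 191, 134 and 87.5 CPM. Their part in the lower Ccl2, Ccl7 and Ccl12 levels of AS was not tested.

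Ccl5, a product of activated T cells and NK cells, was at 452, 80.3, 403 and 315 CPM, with AS the lowest library. It was 5.63-fold (5.03 to 6.33) lower in AS than in the library labelled Healthy, and MTZ-treated and MTZ-preventive were 5.02-fold (4.48 to 5.65) and 3.92-fold (3.5 to 4.41) above AS. NK-like cells were at 24040, 32147 and 22579 CPM in the 3 libraries with at least 20 such cells, from 61, 37 and 32 cells, and T-like cells at 949, 5114 and 2166 CPM. AS held 0 NK-like and 9 T-like cells among 2160. After thinning, 95.1%, 100% and 100% of the NK-like cells had a Ccl5 UMI (98.4%, 100% and 100% unthinned), beside 0.529%, 1.35% and 0.353% of B-like cells, at median depths of 2711, 1505 and 1750 and of 1960, 1373 and 1667 UMIs. The fibroblast-like level of 227 CPM in MTZ-preventive came largely from 1 cell with 1229 of 1786 UMIs and was 71.1 CPM without it.

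Ccl3 and Ccl4, early inflammatory chemokines, shared the NK-like source. Ccl4 was at 114, 191, 136 and 79.6 CPM over all cells, at 4230, 6266 and 6659 CPM in the NK-like cells of the 3 libraries without AS, and at 4133, 602, 2142 and 2109 CPM in macrophage-like cells. Ccl3 was at 37.3, 104, 19.0 and 18.8 CPM, at 1934, 998 and 1395 CPM in NK-like cells, and at 843, 75.3, 221 and 416 CPM in macrophage-like cells (273 CPM in MTZ-preventive without the top cell). In AS the neutrophil-like cells were the highest class, at 1876 CPM (1598 to 2188) of Ccl3 and 2918 CPM (2569 to 3302) of Ccl4, and held 40.8% and 34.7% of the UMIs. AS was the highest library for both genes over all cells and the lowest in macrophage-like cells. B-like cells of the libraries labelled Healthy and MTZ-preventive were at 94.0 and 111 CPM of Ccl4.

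Ccl6 and Ccl9, mouse ligands of Ccr1 made by myeloid cells, were highest in macrophage-like cells in all 4 libraries. Ccl6 was at 8.41, 90.3, 45.3 and 25.4 CPM over all cells and at 733, 973, 1378 and 1929 CPM in macrophage-like cells, so AS was the highest library in the first measure and not in the second. In AS 1 macrophage-like cell held 125 of the 194 Ccl6 UMIs, and the level without it was 375 CPM. Neutrophil-like cells of AS were at 394 CPM of Ccl6, or 358 CPM without their top cell. The lead of macrophage-like cells over them in AS thus came largely from that 1 macrophage-like cell. Ccl9 was at 2.99, 13.1, 10.2 and 8.30 CPM over all cells and at 174, 110.4, 274 and 389 CPM in macrophage-like cells, with 59.8 CPM in AS without the top cell.

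Ccl21a, the Ccr7 ligand by which lymphatic vessels take in dendritic cells, was at 272, 3.41, 164 and 88.5 CPM. AS was the lowest library with 13 UMIs, 79.6-fold (46.5 to 149.6) below the library labelled Healthy, and MTZ-treated and MTZ-preventive were 48.2-fold (28.1 to 90.6) and 25.9-fold (15.1 to 48.8) above AS. Lymphatic endothelial-like cells, which were chosen without any chemokine, numbered 127, 16, 103 and 118, or 1.14%, 0.741%, 1.52% and 0.832% of the kept cells. They held 92.3%, 59.3% and 77.7% of the Ccl21a UMIs in the 3 libraries with at least 20 of them. There Ccl21a was at 9410, 2683 and 4102 CPM, and 61.4%, 40.8% and 51.7% of the cells had a UMI after thinning (65.4%, 49.5% and 57.6% unthinned), beside 0.342%, 0% (at most 4.86%) and 0.353% of B-like cells (0.685%, 0% and 0.706% unthinned), at median depths of 3728, 3043 and 3538 UMIs and of 1960, 1373 and 1667 UMIs. The 8 lymphatic gate markers summed to 128, 91.9, 151 and 129 CPM over all cells, so they were less far apart than Ccl21a. This sum does not measure lymphatic cells alone. It was 70.5, 120.3, 86.3 and 119 CPM in fibroblast-like cells and 76.0, 126, 115 and 93.7 CPM in endothelial-like cells. In the fibroblast-like cells of AS, Prox1, Flt4, Mmrn1 and Reln were at 0. AS held too few lymphatic endothelial-like cells to give a level within them.

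Ccl19, the other Ccr7 ligand, was highest in fibroblast-like cells. It was at 54.7, 103, 91.9 and 62.3 CPM over all cells, at 219, 412, 215 and 169 CPM in fibroblast-like cells and at 154, 103, 84.0 and 55.5 CPM in smooth muscle-like cells. In fibroblast-like cells AS was the highest library, 1.88-fold (1.61 to 2.19) above the library labelled Healthy and 2.44-fold (2.10 to 2.83) above MTZ-preventive. Ccl11, or eotaxin, which calls eosinophils through Ccr3, was at 27.1, 30.7, 40.7 and 86.3 CPM and at 153, 88.7, 104 and 240.1 CPM in fibroblast-like cells, with MTZ-preventive 2.71-fold (2.01 to 3.72) above AS there. Ccl27a, a Ccr10 ligand known from skin, was spread over the classes at 23.4, 18.6, 40 and 17.6 CPM, with 40.2, 47.7, 75.4 and 36.0 CPM in smooth muscle-like cells. Ccl24, a further Ccr3 ligand, reached 2.55 CPM in MTZ-treated, where 1 macrophage-like cell gave 37 of 39 UMIs of its class.

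Comparing the same class of cells takes out the share of that class. In fibroblast-like cells, 5 of the 12 members with at least 50 CPM in either library were over 2-fold higher in AS than in the library labelled Healthy (Ccl2, Ccl4, Cxcl2, Cxcl13 and Cxcl14) beside 4.49% of all genes, and 1 (Cxcl10) was lower beside 7.67%. The median log2 ratio was 0.92 for the members and -0.01 for all genes. For MTZ-treated against AS, 0 of 12 were higher beside 2.34% and 3 were lower (Ccl4, Cxcl2 and Cxcl13) beside 3.68%, with medians of -0.37 and 0.03. For MTZ-preventive against AS, 5 of 13 were higher (Ccl5, Ccl11, Cxcl1, Cxcl10 and Cxcl14) beside 2.43%, and 3 were lower (Ccl4, Ccl19 and Cxcl2) beside 1.71%, with medians of 0.78 and -0.01. Fibroblast-like Ccl4 was at 6.81, 55.2, 8.65 and 4.44 CPM, so its call in each comparison rests on the AS level. That level came from 28 UMIs and was 47.5 CPM without the top cell, under the minimum of 50 CPM. The neutrophil gate markers, given above for fibroblast-like cells, were also highest in AS. Their part in the Ccl4 calls was not tested. Beside Ccl5 in fibroblast-like cells, the 10 T cell gate markers summed to 106, 15.8, 9.10 and 45.3 CPM and the 10 NK gate markers to 8.39, 0, 14.1 and 4.82 CPM, and their part was not tested.

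**Figure D5:**
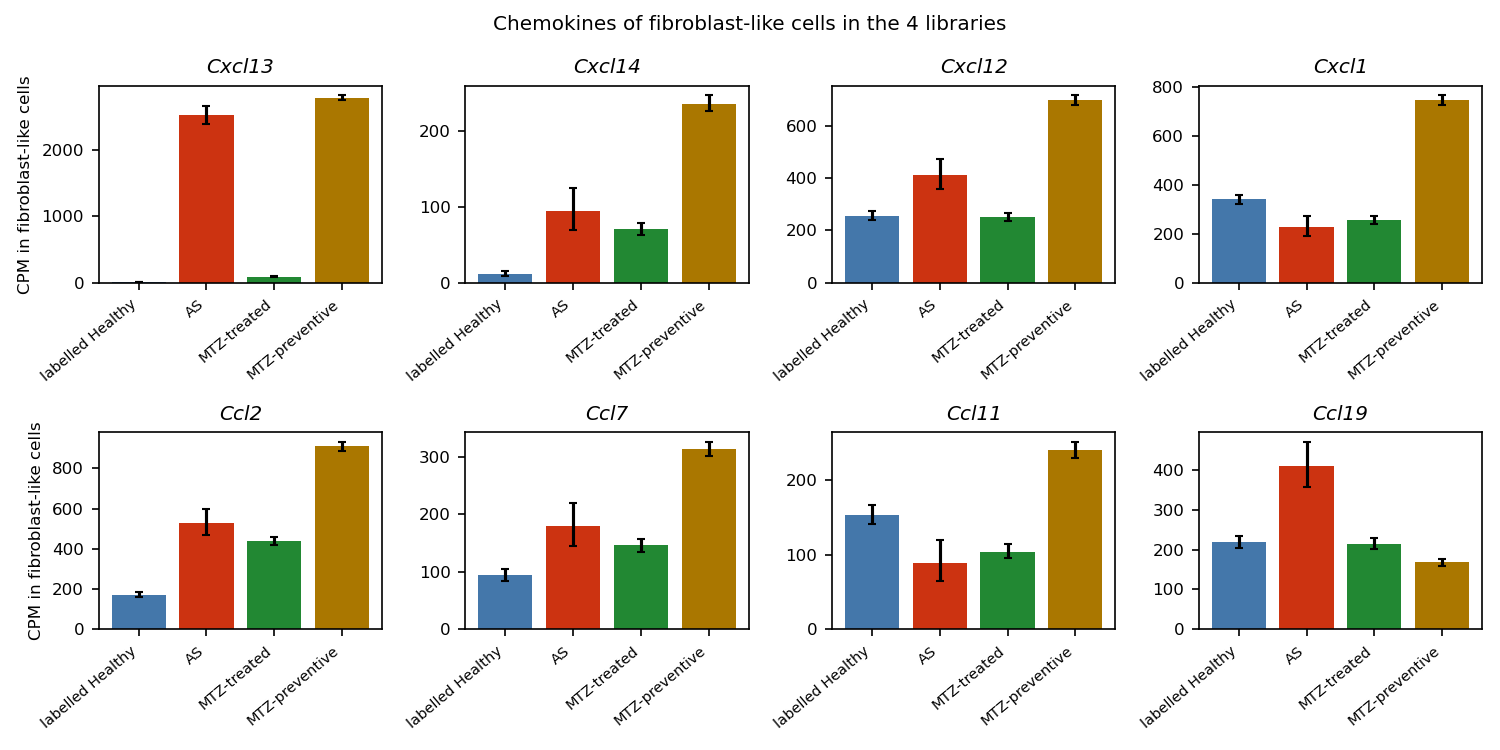
Chemokine levels in fibroblast-like cells of each library, 1 panel for each of 8 chemokines. Bars give CPM from 0 with exact Poisson limits as error bars; Cxcl13 is at 2520 and 2779 CPM in AS and MTZ-preventive and at 12.6 and 89.7 CPM in the library labelled Healthy and in MTZ-treated, and Ccl2, Ccl7, Cxcl1, Cxcl12 and Cxcl14 are highest in MTZ-preventive.

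Fewer members reached this level in endothelial-like cells. Of 7 members tested, 4 were over 2-fold higher in AS than in the library labelled Healthy (Ccl2, Ccl4, Cxcl2 and Cxcl13) beside 3.88% of all genes and 0 were lower beside 5.46%, with medians of 1.14 and -0.08. The 4 became 2 when a class took at least 4 markers or a lead of 3, or when S100a8, S100a9 and Retnlg joined the neutrophil gate, and with that gate the log2 ratio of Ccl4 was -0.04. In these settings the share of all genes past 2-fold was not counted. The 10 neutrophil gate markers summed to 19.0, 85.7, 16.4 and 32.0 CPM in endothelial-like cells, and their part in these ratios was not tested. For MTZ-treated against AS, 3 of 9 were higher (Ccl2, Ccl5 and Ccl21a) beside 2.18% and 2 were lower (Cxcl2 and Cxcl13) beside 4.43%, with medians of 0.04 for both. For MTZ-preventive against AS, 2 of 8 were higher (Ccl5 and Cxcl1) beside 2.83% and 2 were lower (Ccl4 and Cxcl2) beside 1.91%, with medians of 0.10 and 0.05. Endothelial-like Ccl2 was at 30.9, 68.0, 159.6 and 68.4 CPM, where 1 cell of MTZ-treated held 188 of 486 UMIs and the level without it, 98.2 CPM, was no longer past 2-fold of AS. The 10 T cell gate markers, beside Ccl5, summed to 89.1, 17.7, 34.5 and 51.8 CPM in these cells, and the 10 NK gate markers to 11.5, 1.48, 27.9 and 6.02 CPM, with 9 of the 10 at 0 in AS. Their part in the endothelial-like Ccl5 of 25.3, 5.91, 185 and 75.1 CPM was not tested. Endothelial-like Ccl21a of MTZ-treated, at 122 CPM, came from 43 of 1409 cells, with 44.2% of its 371 UMIs in 5 cells. The 8 lymphatic gate markers summed to 76.0, 126, 115 and 93.7 CPM in endothelial-like cells. Their part in the Ccl21a level was not tested.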

How the data were processed

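Counts of UMIs per gene and cell were deposited by the authors as unnormalized matrices from Cell Ranger 5.0.0 with STAR and mm10, per the file headers and the submitters' processing notes. Cell limits followed the study (over 200 genes, over 1000 UMIs, log10 genes over log10 UMIs above 0.7, mitochondrial UMIs under 10%, red blood cell genes under 5%). The study names all 6908 to 23963 deposited barcodes per library as high-quality cells, while these limits kept 2160 to 14186 once 39 to 2130 called doublets were removed. Doublets were called with 2 simulated doublets per cell, 2000 variable genes and 30 principal components at an assumed 0.8% per 1000 cells. A cell took 1 of 13 classes with at least 3 of its markers and 2 more than any other class, with 2 exceptions. T and NK did not compete with each other, and a cell with at least 3 markers of both was set apart. Endothelial and lymphatic endothelial did not compete either. Of the cells of that pair, those with at least 3 lymphatic markers were lymphatic endothelial-like, whatever their count of endothelial markers. No chemokine was a marker. UMIs were summed per library and class of at least 20 cells and scaled to CPM. Ratios took exact binomial limits, CPM exact Poisson limits and shares Clopper-Pearson limits, and a level of 0 was set to a floor of 3 counts for a ratio. No condition was tested, since each had 1 library. The counts of members over 2-fold took genes with at least 10 CPM (50 CPM within a class) in either library. Genes named were the members with at least 10 CPM in a library, in order of role, and single receptors or markers chosen for their values. The members and lists were chosen with earlier results of these data known. The scripts were tested on simulated data. Tools were R 4.3.3 with edgeR 4.0.16 (TMM factors, as an alternative scaling) and Python 3.11.15 with scipy 1.17.1, scikit-learn 1.9.0, numpy 2.4.6, matplotlib 3.10.9 and pandas 2.3.3. Alternatives changed the limits on cells, the gates, the scaling and the mix of classes. B and T cell receptor contig files were not used here. Promoter letters and positions are from RefSeq (GRCm38.p6), where all 36 members matched by symbol and 25 had a promoter window.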

Additional observations from a re-analysis of the deposited data

Results flagged for a closer look

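For 9 combinations of a chemokine and a comparison, cells of one class lay above and cells of another class below the reference library, both past 2-fold, and the log2 ratios of the 2 classes are given here as flagged differences. None of these differences between classes was tested. Between AS and the library labelled Healthy, Ccl2 differed by 6.01 on the log2 scale between smooth muscle-like (4.04) and macrophage-like cells (-1.97), and Ccl4 by 5.80 between fibroblast-like (3.02) and macrophage-like cells (-2.78). Between MTZ-treated and AS, Ccl2 differed by 4.12 between macrophage-like (1.69) and smooth muscle-like cells (-2.43), and Ccl4 by 5.22 between the same classes (1.83 and -3.39). Between MTZ-preventive and AS, Ccl2 differed by 3.46 between macrophage-like (1.29) and smooth muscle-like cells (-2.17), and Ccl4 by 5.45 between macrophage-like (1.81) and fibroblast-like cells (-3.64). In the same comparison Cxcl1 differed by 4.13 between fibroblast-like (1.71) and macrophage-like cells (-2.42), Cxcl13 by 6.87 between adipocyte-like (3.25) and macrophage-like cells (-3.62), and Cxcl14 by 5.46 between adipocyte-like (2.46) and smooth muscle-like cells (-3.00). All 9 rest on the AS library, with 90 macrophage-like and 124 smooth muscle-like cells. The Cxcl13 level of 431 CPM in AS macrophage-like cells came from 1 cell with 81 of 86 UMIs and was 25.6 CPM without it. The Cxcl13 value of -3.62 rests on that cell, and without it the macrophage-like ratio would no longer be past 2-fold lower. In addition, 1 AS macrophage-like cell held 64 of 116 Ccl2 UMIs. The Ccl4 values of AS rest on 28 UMIs in fibroblast-like and 14 UMIs in smooth muscle-like cells. Macrophage-like Cxcl1 rests on 28 UMIs in AS and 6 UMIs in MTZ-preventive. Fibroblast gate markers summed to 442 and 109 CPM in these macrophage-like cells, and their part was not tested. For Cxcl14, 1 adipocyte-like cell of MTZ-preventive held 119 of 238 UMIs, and the level of 64.0 CPM was 32.0 CPM without it.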

How the results depend on the processing

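Each count of members over 2-fold was taken again under each alternative setting that applied to it. Of these pairs of a count and a setting, 131 stayed within 1.5 times of the reported value and 31 moved further. In 4 cases the log2 ratio of a single member that was past 2-fold turned sign under an alternative. Over all cells, the 15 members higher in AS than in the library labelled Healthy became 9 without B-like, T-like and NK-like cells and 6 with classes weighted alike. The 6 lower in MTZ-treated became 10 with looser limits on cells; the 7 lower in MTZ-preventive became 12 with no minimum level and 4 with classes weighted alike, and the 3 higher became 5 with all deposited barcodes and 5 without B-like, T-like and NK-like cells. Weighting classes alike also turned Cxcl10 between AS and the library labelled Healthy to -0.46, and Ccl12 and Ccl6 between MTZ-preventive and AS to 0.92 and 0.08. In fibroblast-like cells, the 1 lower in AS became 2 with at least 4 markers and with a minimum of 25 CPM, and the 0 higher in MTZ-treated became 1 with a lead of 1 marker, doublets kept, looser limits, S100a8, S100a9 and Retnlg in the neutrophil gate, or 25 CPM. In endothelial-like cells, the 4 higher in AS became 2 with at least 4 markers, a lead of 3 or the S100a8 gate, which also turned Ccl4 to -0.04, and the 0 lower became 1 with at least 4 markers, a lead of 3 or looser limits and 2 at 25 CPM. There the 2 lower in MTZ-treated became 1 with a lead of 3 or the S100a8 gate and 4 with looser limits or 25 CPM, the 2 higher in MTZ-preventive became 1 with at least 2 markers, a lead of 1 or looser limits, and the 2 lower became 1 with at least 4 markers, a lead of 3 or the S100a8 gate. The causes were not tested, and the share of all genes past 2-fold was not counted under these alternatives. Leaving hemoglobin, ribosomal protein and mitochondrial genes out of the totals moved the median log2 ratio of all genes from -0.12 to -0.28 (AS against the library labelled Healthy) and from 0.06 to 0.17 (MTZ-preventive against AS). The class with the highest level was the same in every gate setting for 74 of 88 pairs of a member and a library. An alternative with only cells that have a class was chosen after seeing the data and moved no count past 1.5 times. No paired analysis was possible because each group has 1 library, and for that reason no replicate could be left out. Depth limits AS most, where 3 UMIs are 0.787 CPM against 0.0847 CPM in MTZ-preventive.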

Other observations

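The receptors gave a partner reading of the same libraries. Of 23 chemokine receptor genes in the tables, 8 reached 10 CPM in AS or the library labelled Healthy: 4 were over 2-fold higher in AS (Ccr1, Ccrl2, Cxcr2 and Ackr1) and 3 lower (Ccr7, Cxcr4 and Cxcr5), beside 8.71% and 13.8% of all genes. Against AS, 0 of 6 were higher in MTZ-treated and 3 lower (Ccr1, Ccrl2 and Cxcr2), beside 5.94% and 5.84%. In MTZ-preventive 1 of 7 was higher (Ccr7) and the same 3 were lower, beside 4.50% and 2.95%. B-like cells numbered 3213 in the library labelled Healthy and 16 in AS, and T-like cells 1798 and 9. The part of this mix in the receptor levels was not tested. Cxcr2, the receptor of Cxcl1, Cxcl2 and Cxcl3, was at 0.227, 13.6, 0.255 and 0.311 CPM in the order labelled Healthy, AS, MTZ-treated, MTZ-preventive, and at 208 CPM (124 to 329) in the neutrophil-like cells of AS. Ccrl2, a receptor that presents chemerin and does not signal, was at 15.2, 52.5, 14.1 and 16.2 CPM, and at 845 CPM (663 to 1063) in those neutrophil-like cells. Ccr7, the receptor of Ccl19 and Ccl21a, was at 183, 7.35, 8.02 and 96.2 CPM, and B-like cells were at 566, 317 and 722 CPM in the 3 libraries that hold enough of them. Cxcr4, the receptor of Cxcl12, was at 54.4, 15.2, 7.70 and 18.4 CPM.

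Among the atypical receptors that take up chemokines, Ackr3, which binds Cxcl12, was at 78.6, 82.1, 122 and 122 CPM and at 353, 272, 270.4 and 313 CPM in fibroblast-like cells. Ackr1 was highest in endothelial-like cells of every library, at 51.9, 62.0, 45.0 and 45.0 CPM, and Ackr4, which takes up Ccl19 and Ccl21, was at 167, 78.9 and 133 CPM in the lymphatic endothelial-like cells of the 3 libraries without AS.

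Of the chemokines outside the name rule, Cx3cl1 was at 8.48, 21.8, 16.0 and 14.5 CPM, Xcl1 at 20.7, 1.05, 5.67 and 8.64 CPM and Pf4 at 7.41, 16.3, 26.2 and 5.85 CPM over all cells. Pf4, or Cxcl4, was among the leading genes of macrophage-like cells, at 1375, 140.5, 789.7 and 612 CPM there, with AS as the lowest library. The 10 immediate early genes, which respond within minutes to handling of tissue as well as to signals, summed to 15846, 15510, 14929 and 19484 CPM over all cells and to 13186, 9748, 10210 and 16217 CPM in fibroblast-like cells. The 10 NF-kB feedback genes summed to 2876, 2509, 1769 and 3045 CPM and to 1337, 1646, 1260 and 2146 CPM in fibroblast-like cells. Their part in the chemokine levels was not tested.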
